A study of Mus musculus with 8 samples.

Results

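Described here are genes of the carrier families that bring glucose into T cells and move monocarboxylates such as lactate, with a partner gene. They are 5 members of the Slc2a family (Slc2a1, Slc2a3, Slc2a6, Slc2a8 and Slc2a9), 4 members of the Slc16a family (Slc16a1, Slc16a3, Slc16a6 and Slc16a7) and Bsg, the gene of their ancillary subunit basigin. They were chosen by gene symbol, with earlier results of these data known, as 10 of the 19505 named genes on the array. Each was measured by 1 probe set. Transcripts were measured on 8 Affymetrix arrays of 1 colour, 4 for each group. All cells were unfractionated CD4 and CD8 T cells from spleens of male wild-type C57BL/6 mice, purified as untouched T cells and activated with beads that carry antibodies to CD3 and CD28. The control group was cultured for 48 h with the vehicle, phosphate-buffered saline (PBS). The other group was cultured for the same 48 h with human beta-defensin-2 (hBD-2), a cationic antimicrobial peptide of epithelia, at a labelled 60 µL/mL whose mass concentration is unknown. The labels name 4 mice for the 8 arrays, without their ages and without tying an array to a mouse, so p-values measure only the spread between these arrays.

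Activated T cells switch to rapid glycolysis even where oxygen is plentiful, and they raise glucose uptake to feed it. Glucose enters by facilitated diffusion through Slc2a transporters, of which Slc2a1 (GLUT1) and Slc2a3 (GLUT3) sit at the cell surface in lymphocytes. Pyruvate that is not burned leaves as lactate together with a proton through Slc16a monocarboxylate transporters, chiefly Slc16a3 (MCT4) and Slc16a1 (MCT1), which need basigin to reach the membrane. The genes of several of these carriers are textbook targets of the hypoxia-inducible factors, which bind a short core motif, and of Myc.

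Upstream sequences were matched by symbol in a RefSeq table of the build GRCm38.p6 for 6 of the 10 members, namely Slc2a1, Slc2a6, Slc2a8, Slc2a9, Slc16a1 and Slc16a3. The 3 of them whose transcripts fell with hBD-2 are printed to show where the core motif of the hypoxia-inducible factors (ACGTG or GCGTG, on either strand) lies in the 250 bases before the annotated start. All 3 windows are on the plus strand and are written 5′ to 3′ up to the base before the start. Capitals mark each match, which reads CACGT or CACGC where it is on the opposite strand.
Slc2a1, chr4:119108495-119108744: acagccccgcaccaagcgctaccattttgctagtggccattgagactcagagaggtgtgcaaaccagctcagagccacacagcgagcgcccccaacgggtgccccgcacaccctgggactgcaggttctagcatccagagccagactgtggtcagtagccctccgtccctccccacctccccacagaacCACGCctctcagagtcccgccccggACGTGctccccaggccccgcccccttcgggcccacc
Slc16a3, chr11:120948817-120949066: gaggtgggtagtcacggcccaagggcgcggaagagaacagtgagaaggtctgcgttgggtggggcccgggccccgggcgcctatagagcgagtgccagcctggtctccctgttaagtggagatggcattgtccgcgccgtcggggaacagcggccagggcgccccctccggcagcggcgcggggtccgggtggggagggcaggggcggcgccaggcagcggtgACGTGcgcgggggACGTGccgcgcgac
Slc16a1, chr3:104638414-104638663: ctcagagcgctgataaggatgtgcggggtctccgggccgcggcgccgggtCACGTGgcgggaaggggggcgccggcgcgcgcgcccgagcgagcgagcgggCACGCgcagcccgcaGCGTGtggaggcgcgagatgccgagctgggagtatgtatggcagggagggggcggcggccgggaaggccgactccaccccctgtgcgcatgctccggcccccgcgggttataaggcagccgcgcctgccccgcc

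The Slc2a1 window held 1 ACGTG, starting 36 bases before the start, and 1 GCGTG on the opposite strand. Both matches of the Slc16a3 window were ACGTG, starting 27 and 14 bases before the start. In the Slc16a1 window the palindrome CACGTG, the E-box that Myc and its relatives bind, gave an ACGTG on each strand, and 2 GCGTG lay nearer to the start. Of the members whose transcripts did not pass the test, Slc2a6 had 4 GCGTG, Slc2a8 had 1 and Slc2a9 had no match. Over all 32851 windows of the same length, 16.6% held ACGTG, 28.2% held GCGTG, 38.6% held either and 6.02% held CACGTG. The windows with 2 or more matches had more G and C (66.4% in Slc2a1, 73.6% in Slc16a3, 76.4% in Slc16a1 and 65.2% in Slc2a6) than those of Slc2a8 (52.8%) and Slc2a9 (48.8%), and a match is a description of letters, not a bound site.

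With hBD-2, 6 of the 10 transporter genes fell, none rose and 4 did not pass the test. The 6 were both surface glucose transporter genes, Slc2a1 and Slc2a3, the lactate transporter genes Slc16a3 and Slc16a1, their relative Slc16a6, and Bsg. Falls ran from 1.51-fold (Slc16a6) to 3.38-fold (Slc2a3). Across all 19505 genes, 3.66% were lower and 0.800% were higher at an adjusted p below 0.05 (limma with Benjamini-Hochberg adjustment, two-sided). The median log2 fold change was -0.61 over the 10 members and 0.02 over all genes. As the members were chosen with earlier results of these data known, this contrast is a description. Slc2a3, Slc16a3 and Slc2a1 fell at least 2-fold, as did 0.359% of all genes. In the 6 members that fell, the arrays of the groups did not overlap, and the same was true, with hBD-2 lower, of 9.36% of all genes. The background varied with the arrays used. With all 8 arrays 713 genes were lower, against 279, 299 and 325 without PBS replicate 1, 2 or 4, 339 and 313 without hBD-2 replicate 3 or 4, and 1074 without hBD-2 replicate 1. Of the members, 5 or 6 fell when any single array was left out, and 4 fell without hBD-2 replicates 3 and 4 together (112 genes lower). In a bulk culture, fewer cells that express a gene and less of its RNA per cell cannot be told apart.

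**Figure D1:**
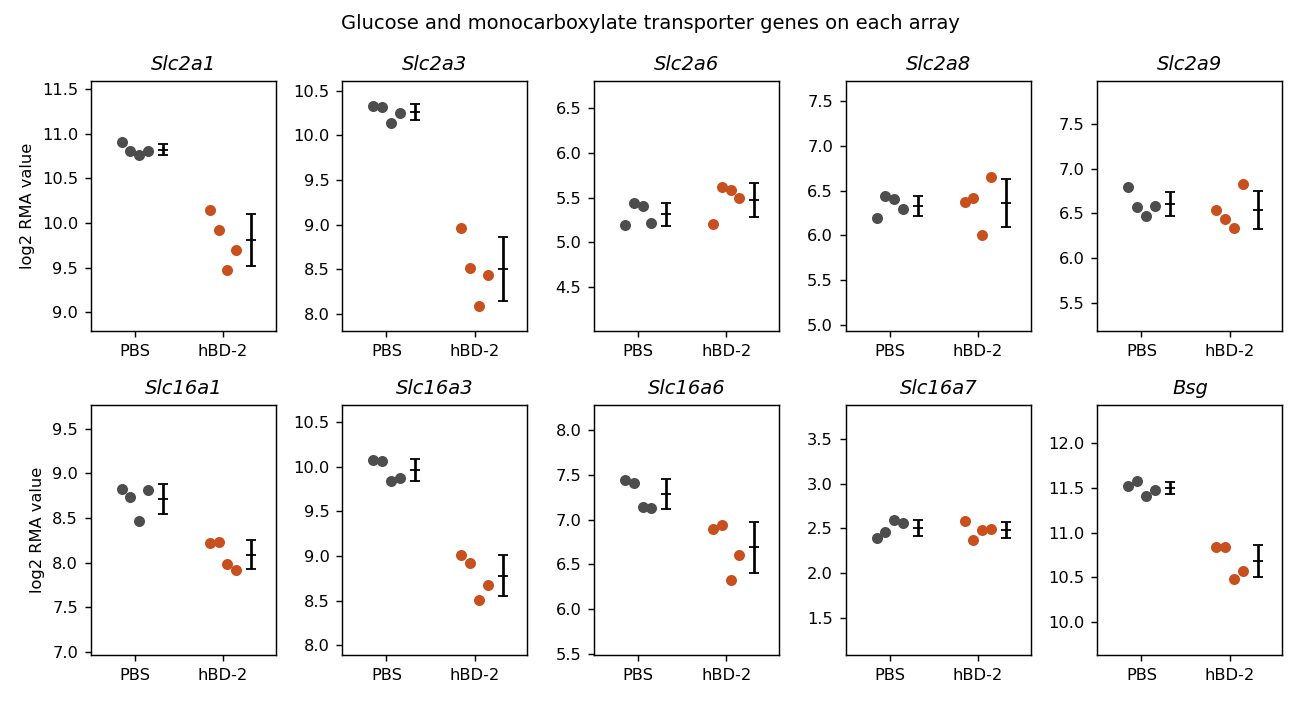
Log2 RMA values (vertical axis) of the 10 transporter genes on each of the 4 PBS arrays (grey) and 4 hBD-2 arrays (orange), replicates 1 to 4 from left to right. Bars give mean ± SD, and all panels span the same number of log2 units but start at different levels. The groups are apart for Slc2a1, Slc2a3, Slc16a1, Slc16a3, Slc16a6 and Bsg and overlap for the other 4.

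Slc2a3, the high-affinity glucose transporter of neurons and lymphocytes, showed the largest fall of the 10. Its log2 values were 10.33, 10.32, 10.14 and 10.25 on PBS replicates 1 to 4, and 8.96, 8.52, 8.09 and 8.43 on hBD-2 replicates 1 to 4. The lowest PBS array lay 1.18 log2 units above the highest hBD-2 array, which was replicate 1. The mean went from 10.26 ± 0.0881 (SD, n = 4) to 8.50 ± 0.358, a 3.38-fold fall (log2 fold change -1.76, SE 0.154, 95% interval -2.10 to -1.42, limma's adjusted p = 0.000250). Only 5 of the 19505 genes had a more negative log2 fold change.

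Slc2a1, the widely expressed basal glucose transporter, fell 2.02-fold. PBS replicates 1 to 4 had log2 values of 10.91, 10.80, 10.76 and 10.81, and hBD-2 replicates 1 to 4 had 10.15, 9.93, 9.47 and 9.69. All PBS arrays were close together and above all hBD-2 arrays, among which replicate 3 was lowest, as it was for Slc2a3. The log2 fold change was -1.01 (SE 0.133, 95% interval -1.30 to -0.72, limma's adjusted p = 0.00204), with group means of 10.82 ± 0.0600 and 9.81 ± 0.291 (SD, n = 4).

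The remaining 3 Slc2a members did not pass, and none had an unadjusted p under 0.05. Slc2a6, a transporter of lysosomal membranes, had log2 values of 5.20, 5.44, 5.41 and 5.22 on the PBS arrays and 5.21, 5.62, 5.58 and 5.49 on the hBD-2 arrays. These ranges overlapped, and the log2 fold change was 0.16 (95% interval -0.09 to 0.41, limma's adjusted p = 0.448). Slc2a8, an intracellular hexose transporter, had values of 6.19, 6.44, 6.40 and 6.29 with PBS and 6.38, 6.43, 6.00 and 6.66 with hBD-2, so that the hBD-2 arrays held both the lowest and the highest value. Its log2 fold change was 0.03 (95% interval -0.26 to 0.32, limma's adjusted p = 0.914). Slc2a9, which carries urate, had values of 6.79, 6.57, 6.47 and 6.58 with PBS and 6.54, 6.43, 6.33 and 6.83 with hBD-2, again overlapping, and a log2 fold change of -0.07 (95% interval -0.33 to 0.20, limma's adjusted p = 0.786). The lower ends of these 3 intervals were -0.09, -0.26 and -0.33. All are above the log2 fold change of the least changed member that fell, -0.59 for Slc16a6. The interval of Slc16a6, -0.91 to -0.28, overlapped that of Slc2a9, and differences between these members were not tested.

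Slc16a3, the low-affinity carrier through which highly glycolytic cells export lactate, showed the second largest fall of the 10, 2.27-fold. PBS replicates 1 to 4 had log2 values of 10.08, 10.06, 9.84 and 9.87, and hBD-2 replicates 1 to 4 had 9.01, 8.92, 8.51 and 8.68. A gap of 0.82 log2 units parted the lowest PBS from the highest hBD-2 array. The log2 fold change was -1.18 (SE 0.123, 95% interval -1.45 to -0.91, limma's adjusted p = 0.000632), from 9.96 ± 0.126 to 8.78 ± 0.230 (SD, n = 4).

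Slc16a1, a carrier of higher affinity that moves lactate, pyruvate and ketone bodies in either direction, fell 1.54-fold. Its log2 values were 8.82, 8.73, 8.46 and 8.81 with PBS and 8.22, 8.23, 7.98 and 7.91 with hBD-2. The groups were apart by 0.24 log2 units, PBS replicate 3 being the lowest of its group. The log2 fold change was -0.62 (SE 0.115, 95% interval -0.87 to -0.37, limma's adjusted p = 0.0124). Without hBD-2 replicates 3 and 4 together, the arrays with the narrowest interquartile ranges, it was -0.48 and did not pass (limma's adjusted p = 0.160). When any single array was left out, limma's adjusted p for Slc16a1 ran from 0.0108 to 0.0482.

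Slc16a6, a relative known as an exporter of ketone bodies in liver, had log2 values of 7.45, 7.42, 7.14 and 7.14 with PBS and 6.89, 6.94, 6.32 and 6.61 with hBD-2. The gap between the groups, 0.19 log2 units, was the smallest among the 6 that fell. The log2 fold change was -0.59 (SE 0.144, 95% interval -0.91 to -0.28, limma's adjusted p = 0.0416), a fall of 1.51-fold. The direction held under every alternative run, but the adjusted p was 0.0586 with quantile normalization repeated and 0.0512 with cyclic loess. Without PBS replicate 1, 2, 3 or 4 it was 0.114, 0.115, 0.0542 and 0.0744, and without hBD-2 replicate 3 or 4 it was 0.0959 and 0.109, so this call did not survive those omissions.

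Slc16a7 (MCT2), a high-affinity pyruvate carrier of neurons and testis, was at 2.39, 2.46, 2.60 and 2.56 with PBS and at 2.58, 2.37, 2.48 and 2.50 with hBD-2. These log2 values lie below the lower quartile of all values, 3.70, and at the percentile 1.93 of gene levels, where a change may not show. Its log2 fold change was -0.02 (95% interval -0.22 to 0.18, limma's adjusted p = 0.922).

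Bsg, whose product basigin (CD147) carries Slc16a1 and Slc16a3 to the membrane, fell 1.76-fold. PBS replicates 1 to 4 had log2 values of 11.52, 11.58, 11.41 and 11.48, and hBD-2 replicates 1 to 4 had 10.84, 10.84, 10.48 and 10.57. The groups were 0.57 log2 units apart, and the hBD-2 arrays formed a higher pair (replicates 1 and 2) and a lower pair (3 and 4). The log2 fold change was -0.81 (SE 0.106, 95% interval -1.05 to -0.58, limma's adjusted p = 0.00199). Emb, the gene of embigin, the other ancillary subunit of this family, was at 9.75 ± 0.0200 and 9.96 ± 0.101 (SD, n = 4), a log2 fold change of 0.22 that did not pass (limma's adjusted p = 0.177). The groups did not overlap for Emb (limma's unadjusted p = 0.0306), and it passed under 1 of 19 alternatives. Groups did not overlap, in either direction, for 14.9% of all genes. The difference between Bsg and Emb was not tested.

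Arrays of a group kept a similar order across the 6 genes that fell. Replicate 3 was the lowest array of its group for 5 of the 6 genes with PBS and for 5 of the 6 with hBD-2. Averaged over the 6 genes, hBD-2 replicates 1 to 4 lay 0.25 and 0.14 above and -0.28 and -0.11 from their group mean on the log2 scale, and PBS replicates 1 to 4 lay at 0.0950, 0.0629, -0.129 and -0.0292 from theirs. The 6 genes share every array, so this order is a description.

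**Figure D2:**
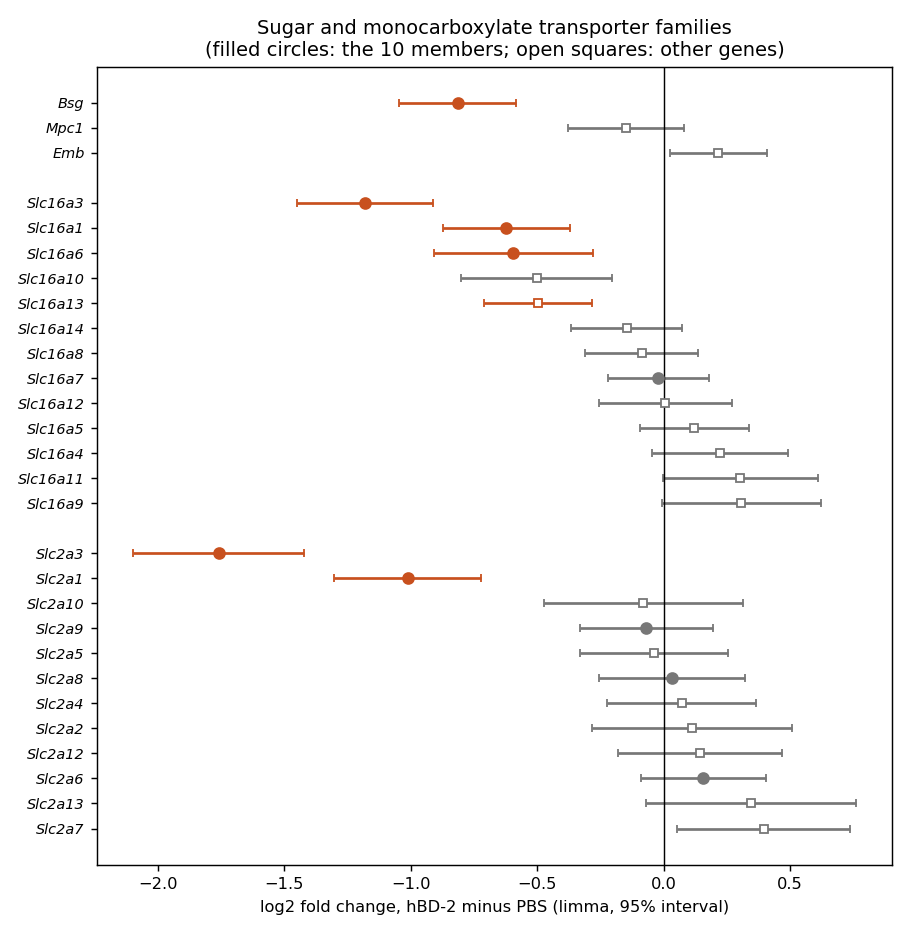
Log2 fold changes (horizontal axis, hBD-2 minus PBS) with limma's 95% intervals for all measured Slc2a and Slc16a genes, Bsg, Emb and Mpc1. Circles are the 10 members, squares the other genes, and orange marks an adjusted p below 0.05. Slc2a3, Slc2a1 and Slc16a3 lie farthest to the left, from -1.76 to -1.01, and of the squares only Slc16a13 is orange.

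Of the other genes of both families, 1 passed. None of the 7 other Slc2a genes did (1 at an unadjusted p under 0.05), and their median log2 fold change was 0.11. Those with the smallest p were Slc2a7 at 0.40, Slc2a13, a proton-coupled inositol transporter, at 0.35, and Slc2a12 at 0.14 (limma's adjusted p = 0.167, 0.307 and 0.612). Slc2a7 passed without hBD-2 replicate 1 (log2 fold change 0.54, limma's adjusted p = 0.0388). For 3 of these 7 genes both group means were below the lower quartile of all values. Slc2a4, the insulin-responsive transporter, was not among those 3 and had a log2 fold change of 0.07 (limma's adjusted p = 0.799).

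Of 9 other Slc16a genes, 1 fell, Slc16a13, with a median of 0.01 over the 9. Of all genes, 3.66% were lower. Slc16a13, a lactate carrier best known in liver, went from 6.07 ± 0.0843 to 5.58 ± 0.135 (SD, n = 4), a fall of 1.41-fold (limma's adjusted p = 0.0173). It failed when PBS replicate 1 or 2, or the fourth hBD-2 array, was left out (limma's adjusted p = 0.0634, 0.0581 and 0.0517). Slc16a10, which carries aromatic amino acids, had a log2 fold change of -0.50 (limma's adjusted p = 0.0624), and it passed under 5 of 18 alternatives. These were cyclic loess, the array level trend removed, a variance trend, array weights and without hBD-2 replicate 3 (limma's adjusted p = 0.0466, 0.0476, 0.0406, 0.0391 and 0.0331). Slc16a11 had one of 0.30 (limma's adjusted p = 0.227). None of 8 sodium-coupled transporters of glucose and monocarboxylates passed (2 at an unadjusted p under 0.05), with a median of 0.15. For 4 of these 8, Slc5a8 and Slc5a9 among them, both group means were below the lower quartile of all values. The same held for 4 of the 9 other Slc16a genes. Slc5a2, the renal glucose transporter, had a log2 fold change of 0.27, Slc5a9 one of 0.32 and the monocarboxylate carrier Slc5a8 one of 0.17 (limma's adjusted p = 0.198, 0.218 and 0.348). Mpc1, a subunit of the carrier that takes pyruvate into mitochondria, had one of -0.15 (limma's adjusted p = 0.444).

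The members that fell did so by unequal measured amounts. The log2 values of a pair of genes were subtracted within each array and the difference was compared between groups for 5 pairs with an exact permutation test (two-sided, n = 4 a group). Every pair had an exact p of 0.0286, below which this test cannot go with 4 arrays a group, and a Benjamini-Hochberg adjusted exact p of 0.0286 over the 5 pairs. The 5 pairs join only members that fell, and the adjustment does not allow for that choice. Levels of different probe sets cannot be set against each other, so only the change in such a difference was read, as a change in measured values. Whether different probe sets register the same fall equally was not tested.

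Slc2a3 fell 1.68-fold more than Slc2a1. The difference Slc2a3 minus Slc2a1 was -0.58, -0.48, -0.63 and -0.56 with PBS and -1.18, -1.41, -1.38 and -1.26 with hBD-2, a change of -0.75 with no overlap. Among the lactate carriers, Slc16a3 fell 1.47-fold more than Slc16a1, the difference going from 1.25 ± 0.140 to 0.69 ± 0.120 (SD, n = 4). Slc2a3 also fell 1.49-fold more than Slc16a3, from 0.30 ± 0.0600 to -0.28 ± 0.169. These 3 changes kept their direction and an adjusted exact permutation p of at most 0.0476 when any single array was left out.

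Smaller differences parted the other pairs. Slc2a1 fell 1.12-fold less than Slc16a3, their difference lying between 0.74 and 0.94 with PBS and between 0.96 and 1.13 with hBD-2. Slc16a1 fell 1.14-fold less than Bsg, with differences of -2.95 to -2.67 and -2.66 to -2.50. The gaps between groups were narrow for both pairs. Without PBS replicate 2 the first had a change of 0.13 (adjusted exact permutation p = 0.0571), and without hBD-2 replicate 1, 2, 3 or 4 its p was 0.107, 0.0714, 0.0714 and 0.0714. The second had a change of 0.14 (adjusted exact permutation p = 0.0571) without PBS replicate 3, and p = 0.114, 0.114, 0.114 and 0.0857 without hBD-2 replicate 1, 2, 3 or 4.

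**Figure D3:**
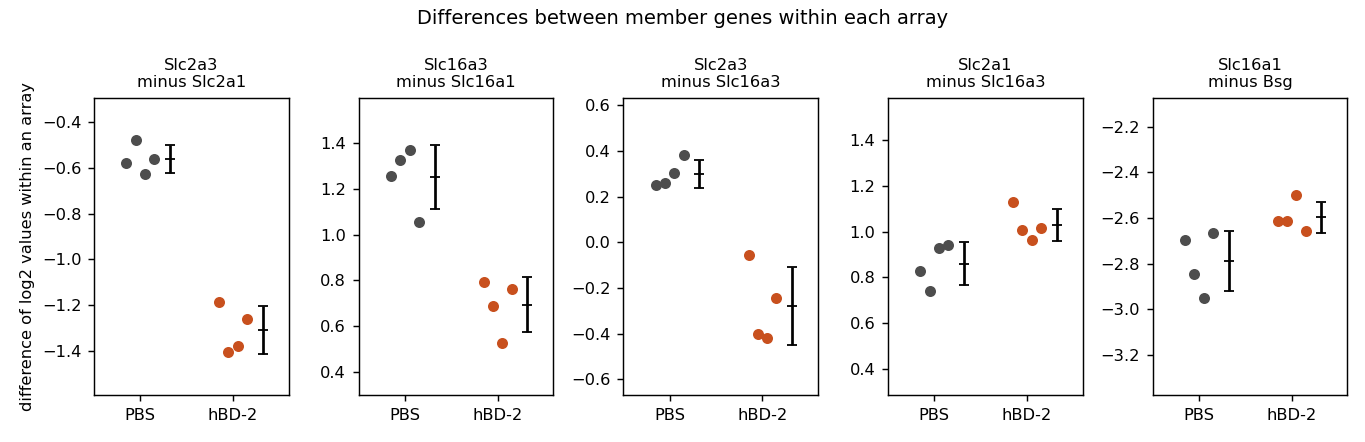
Difference of the log2 values of a pair of transporter genes within each array (vertical axis), for 5 pairs, on the 4 PBS arrays (grey) and 4 hBD-2 arrays (orange), with mean ± SD. The groups are far apart for Slc2a3 minus Slc2a1 (PBS -0.63 to -0.48, hBD-2 -1.41 to -1.18) and nearly touch for Slc16a1 minus Bsg.

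The interquartile range of log2 values was 3.68 ± 0.0549 on the PBS arrays and 3.53 ± 0.0936 (SD, n = 4) on those with hBD-2 (p = 0.0571 by a two-sided exact permutation test), with medians of 5.30 to 5.42 over all 8 arrays. Of the 5776 genes whose mean was at or above that of Slc16a6, the lowest among the members that fell, 7.91% were lower and the median log2 fold change was -0.08. That median was 0.01 with quantile normalization repeated, which equalises the distributions. Under that normalization the log2 fold changes were -1.67 for Slc2a3, -0.92 for Slc2a1, -1.09 for Slc16a3, -0.52 for Slc16a1, -0.53 for Slc16a6 and -0.73 for Bsg. All but Slc16a6 still passed.

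**Figure D4:**
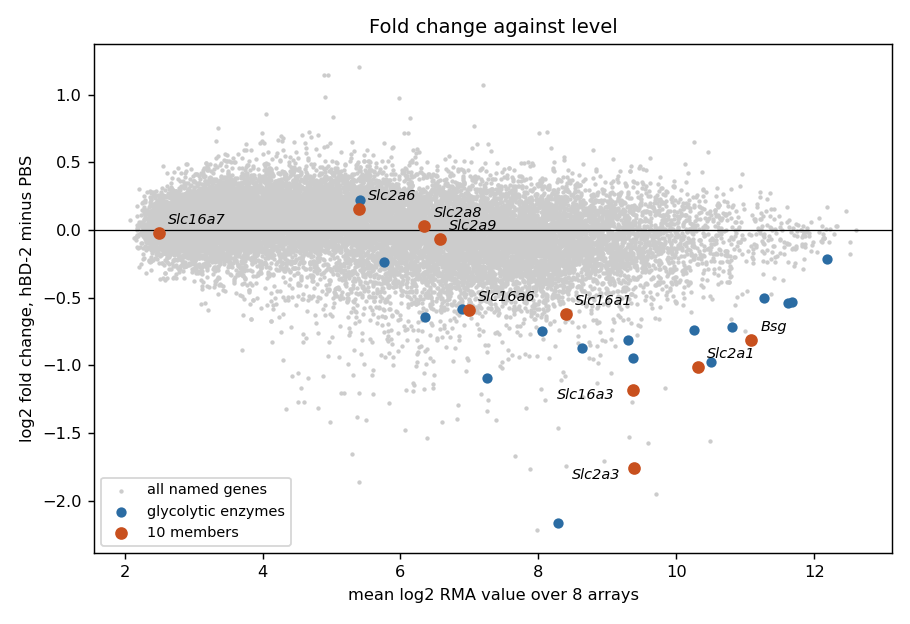
Log2 fold change (vertical axis, hBD-2 minus PBS) against the mean log2 RMA value over the 8 arrays (horizontal axis) for 19505 named genes (light grey), 17 glycolytic enzyme genes (blue) and the 10 transporter genes (orange). The 6 transporter genes that fell have mean levels from 6.99 (Slc16a6) to 11.09 (Bsg), and Slc16a7 lies at the dim end.

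Genes of the enzymes that use the imported glucose fell too. Of 17 measured glycolytic enzyme genes, 14 fell and none rose, with a median log2 fold change of -0.71. Aldoc, an aldolase, fell 4.49-fold, Pgam1, which rearranges phosphoglycerate, 1.93-fold, and Pfkl, a phosphofructokinase subunit, 1.83-fold (limma's adjusted p = 6.04e-06, 0.00157 and 0.00105). The 3 that did not pass were Gapdh at -0.21, Ldhb, the lactate dehydrogenase subunit favoured in oxidative tissue, at 0.22, and Pfkfb4 at -0.24 (limma's adjusted p = 0.160, 0.224 and 0.331). Of 17 other hypoxia-inducible genes, 13 fell and none rose, with a median of -0.70. They included Ndrg1, a stress-response gene, which fell 3.27-fold, the oxygen sensor Egln3, 2.98-fold, and the endoplasmic reticulum oxidase Ero1a, 2.42-fold (limma's adjusted p = 5.36e-05, 0.000424 and 0.000273). Car9, Car12, Kdm3a and Ddit4 had log2 fold changes of 0.14, -0.70, -0.12 and -0.47 and missed the threshold (limma's adjusted p = 0.507, 0.0564, 0.493 and 0.0647). Across all 19505 genes 3.66% were lower, and 7.91% of those at or above the mean level of Slc16a6. Both lists were chosen with earlier results of these data known, so their counts are a description. Without hBD-2 replicates 3 and 4 together, 8 genes fell in each of these lists.

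Of 11 measured regulators of the transcription of these transporters, none passed in limma's test in either direction (5 at an unadjusted p under 0.05), and the median was -0.14. This count depended on the processing. With a variance trend 4 were lower and 2 higher, with genes below the median level left out 3 and 2, and without hBD-2 replicate 1 there was 1 lower. With quantile normalization repeated, cyclic loess or the array level trend removed, 2 were higher. Hif1a, the oxygen-regulated factor subunit, was at 10.54 ± 0.102 and 10.80 ± 0.0370 (SD, n = 4), higher by 0.27 with groups apart (limma's adjusted p = 0.110). Myc was at 10.90 ± 0.106 and 10.68 ± 0.168 (limma's adjusted p = 0.251). For 5 of the 11 regulators the groups did not overlap, against 14.9% of all genes in either direction. The smallest p-values were those of Mlx, a partner of the glucose-sensing factors, at -0.35, Vhl, which marks hypoxia-inducible factors for degradation, at -0.41, and Irf4, a factor induced by the T cell receptor, at -0.52 (limma's adjusted p = 0.0711, 0.0746 and 0.0928). Mlx and Vhl each passed under 2 of 19 alternatives and Irf4 under 3. Arrays measure transcripts, not the amount or activity of these proteins.

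Among regulators of transporter traffic, 1 of 11 passed, against 4.46% of all genes in either direction. Vps29, a subunit of the retromer that returns Slc2a1 protein to the surface, fell 1.38-fold (limma's adjusted p = 0.0288), and none rose. Its adjusted p was 0.0650, 0.0726, 0.0509 and 0.0883 without PBS replicate 1, 2, 3 or 4, and 0.0787 and 0.0831 without hBD-2 replicate 3 or 4. Vps35, another retromer subunit, had a log2 fold change of -0.25 (limma's adjusted p = 0.129). Txnip, an arrestin-like protein that draws Slc2a1 from the membrane, was at 11.08 ± 0.0946 and 11.36 ± 0.135 (SD, n = 4), a log2 fold change of 0.28 (limma's adjusted p = 0.126). The groups did not overlap for Txnip, as for 14.9% of all genes in either direction, and Txnip passed under 2 of 19 alternatives.

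Amino acid transporters, the other nutrient carriers of activated T cells, did not pass in 10 of 10 cases (5 at an unadjusted p under 0.05), with a median of -0.22. With a variance trend, or with genes below the median level left out, 3 of them fell. Slc1a5, the glutamine carrier, Slc38a1, another glutamine carrier, and Slc43a1, which carries leucine, had log2 fold changes of -0.29, -0.24 and -0.28 (limma's adjusted p = 0.122, 0.130 and 0.120). Slc7a5 and Slc3a2, the chains of the large neutral amino acid carrier, had log2 fold changes of -0.11 and -0.04 (limma's adjusted p = 0.726 and 0.859). Whether the glucose and amino acid carriers differ as groups was not tested.

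**Figure D5:**
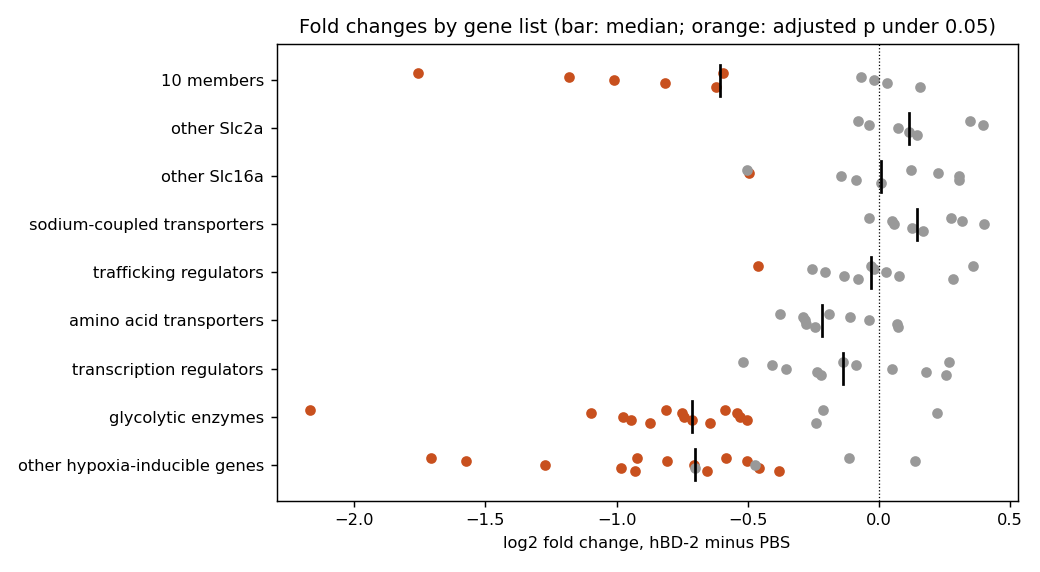
Log2 fold changes (horizontal axis, hBD-2 minus PBS) of single genes in 9 lists (rows), with the median as a bar and genes at an adjusted p below 0.05 in orange. The median is -0.61 for the 10 transporter genes, -0.71 for glycolytic enzymes, -0.70 for other hypoxia-inducible genes and -0.22 for amino acid transporters.

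The genes whose pattern was nearest to the leading transporters included enzymes and stress genes. After each gene was centred on its PBS mean, the root mean square difference over the 8 arrays was smallest for Ndrg1 (0.151 log2 units), the metallothionein gene Mt1 (0.168) and the lymphocyte receptor gene Slamf7 (0.172) against Slc2a3. Against Slc2a1 it was smallest for the triose phosphate isomerase gene Tpi1 (0.0719), the protein disulfide isomerase gene Pdia6 (0.0821) and Pgam1 (0.0871). Against Slc16a3 the nearest were the sterol demethylase gene Cyp51 (0.0826), the transcription factor gene Nfil3 (0.0950) and Ero1a (0.0951). These 9 genes had log2 fold changes between -1.74 (Slamf7) and -0.95 (Pgam1), and likeness here covers both the difference between groups and the order of arrays within them.

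Of 11 T cell markers none passed (1 at an unadjusted p under 0.05), and the mean log2 value over the list was 10.35 to 10.43 on PBS arrays and 10.38 to 10.47 on hBD-2 arrays. Cd3e was at 11.54 ± 0.0329 and 11.47 ± 0.0356 (SD, n = 4), and Cd8b1 at 11.08 ± 0.0776 and 11.17 ± 0.0281. Cd247, the zeta chain of the T cell receptor complex, had the smallest p of the list, with a log2 fold change of 0.25 and groups that did not overlap (limma's adjusted p = 0.120). It passed under 5 of 19 alternatives, among them quantile normalization repeated (0.34, limma's adjusted p = 0.0429). For markers of other cells, list means on single arrays ran from 4.46 to 5.22 with PBS and 4.61 to 6.00 with hBD-2 for 6 B cell markers. Over both groups they ran from 3.83 to 4.24 for 5 macrophage and monocyte markers, from 3.52 to 3.90 for 6 dendritic cell markers and from 4.66 to 5.15 for 4 natural killer cell markers. They ran from 4.13 to 4.67 for 5 neutrophil markers and from 5.38 to 6.01 for 4 platelet markers. For 7 mast cell and basophil markers they were 4.36 to 4.49 with PBS and 4.57 to 5.00 with hBD-2. For 3 erythroid markers they were 4.68 to 4.87 and 4.93 to 5.09. The natural killer cell mean joins unlike levels, as Eomes was at 8.91 with PBS and 8.69 with hBD-2, and Ncr1 at 2.97 and 2.89. Of these 40 markers of other cells, 3 rose, Cpa3 1.98-fold, Fcer1a 1.48-fold and Klf1 1.34-fold, and 1 fell, Itgam 1.54-fold (limma's adjusted p = 0.0132, 0.0323, 0.0441 and 0.0461). Of all genes, 0.800% were higher and 3.66% were lower. Under 18 alternatives, single arrays left out among them, the call was lost in 13 for Klf1, in 8 for Itgam, in 7 for Fcer1a and in 1 for Cpa3. Members of the same list differed in sign. Among the mast cell and basophil markers, Kit, a receptor of stem and mast cells, had a log2 fold change of -0.67 (limma's adjusted p = 0.0744, below 0.05 under 4 of 19 alternatives) and Cd200r3 one of -0.03. Among the macrophage and monocyte markers, Lyz2 had one of 0.52 and Cd14 one of 0.32, the latter with groups apart (limma's adjusted p = 0.287 and 0.0740). B cell markers were higher on average with hBD-2, by 0.49 on the log2 scale, with overlapping groups and none of the 6 past the threshold (1 at an unadjusted p under 0.05). The part of these markers in the fall of the transporter genes was not tested.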

How the data were processed

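Gene expression was read from 1 table of log2 values with 22203 probe sets and 8 arrays. The authors deposited these log2 values. Per the submitters' processing notes, oligo and RMA (robust multi-array average) were used, with no version, and the build of the annotation is likewise not stated in the sources used here. RMA draws dim signals to a common floor, which shrinks fold changes there. Precision is limited by the small number of arrays. A platform table named 19572 probe sets by 1 symbol each, and 2631 were not listed there. Where several shared a symbol (55 genes), the one with the highest mean was kept, leaving 19505 genes. Dim genes were kept.

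hBD-2 was compared with PBS by limma 3.58.1 in R 4.3.3 (lmFit, eBayes, no block), with two-sided p-values adjusted by Benjamini-Hochberg over all 19505 genes and a threshold of 0.05. The fit was tested on simulated data with independent noise for each probe set, which does not model effects that the genes of an array share. Alternatives were the replicate number as a block, other normalizations, variance models, array weights, probe set rules, a filter on dim genes, and leaving out arrays.

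The members and lists were chosen with earlier results of these data known. Named are the 10 members, up to 3 genes of each other list by smallest p (for markers also 2 by level), and the 3 genes nearest in pattern to each of Slc2a3, Slc2a1 and Slc16a3. Hif1a, Myc, Gapdh, Ldhb, Pfkfb4, Car9, Car12, Kdm3a, Ddit4, Slc2a4, Slc7a5, Slc3a2 and Cd200r3 are outside that rule and were added with their values in view. Not every gene the rule takes is printed from the marker lists.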

Additional observations from a re-analysis of the deposited data

How the results depend on the processing

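Slc2a1, Slc2a3, Slc16a3 and Bsg kept their direction and passed under all 19 alternatives. Their log2 fold changes ran from -1.12 to -0.78, -1.91 to -1.52, -1.26 to -0.99 and -0.87 to -0.66. Slc16a1 failed only without hBD-2 replicates 3 and 4 together (-0.48, limma's adjusted p = 0.160). With single arrays left out its limma's adjusted p ran from 0.0108 to 0.0482, close to the threshold at the upper end. Slc16a6 failed with quantile normalization repeated (-0.53, limma's adjusted p = 0.0586), cyclic loess (-0.53, 0.0512), the array level trend removed (-0.53, 0.0512) and without hBD-2 replicates 3 and 4 (-0.37, 0.272); with single arrays left out it ran from -0.68 to -0.47. The cause was not tested. Slc2a6, Slc2a8, Slc2a9 and Slc16a7 passed under none of the alternatives run on them. Leaving out single arrays turned the sign of Slc2a8 (PBS 1, hBD-2 4) and Slc16a7 (PBS 3, hBD-2 2). Slc2a6 and Slc16a7 lie below the median level and have no value where dim genes are left out.

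The count of changed genes, 869, was 2032 with a variance trend, 1770 with genes below the median level left out (fewer genes tested) and 128 without hBD-2 replicates 3 and 4, and it ran from 312 to 1396 with single arrays left out. With single arrays left out, Slc2a1 minus Slc16a3 ran from 0.13 to 0.20 and Slc16a1 minus Bsg from 0.14 to 0.23, and each failed in 5 of 8 omissions. Leaving out hBD-2 replicates 3 and 4, or pairing the arrays, leaves the exact test of the 5 pairs no p below 0.05, so only their values were compared. Correlations of deviations were 0.181, 0.0585, 0.159 and 0.00482 between same-numbered arrays and -0.154 to 0.0906 between arrays of other numbers. The labels do not tie an array to a mouse, so the main fit was unpaired, and these values do not settle the pairing. With the replicate block 857 genes changed, 6 members fell and no member's call changed. The SE of Slc16a6 was then 0.0981 against 0.144 (limma's adjusted p = 0.0171 against 0.0416). The alternatives for list counts and for other genes were added after seeing the data. Slc16a7 is so dim that a change may not show.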
